A study of Mus musculus with 9 samples.

Results

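Xlr3a and Xlr3b are neighbouring copies of an X-linked gene, and they are 2 of the 15074 genes measured here by RNA-seq in mouse embryonic stem cells (ESCs) with and without the maintenance DNA methyltransferase DNMT1. The pair was picked from the gene table by symbol, with the FPKM of both genes in these same libraries already known. Their differences between lines and days are therefore given as a description, and nothing was tested on them. RNA-seq covered 3 lines, each undifferentiated (day 0) and at days 2 and 4 of differentiation towards epiblast-like cells (EpiLCs), with 1 library for each of the 9 conditions. No value has a replicate error, and no significance test was run.

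WT cells were J1, a male mouse ESC line with intact Dnmt1. 1KO cells were derived from J1 ESCs and lack functional Dnmt1 on both alleles (Dnmt1-/-). The loss of Dnmt1 and the separate history of this line cannot be told apart. 1KO+1CI cells are 1KO cells with a transgene that encodes DNMT1CI, a DNMT1 protein without catalytic activity, linked to zeocin resistance and driven by the CAG promoter, which is active in most cell types. Transgenic colonies were isolated as separate clones, and the column of 1KO+1CI values carries a number that is presumably that of 1 clone, so clone and transgene cannot be told apart. All ESCs were grown with LIF on mouse embryonic fibroblast (MEF) feeders. For differentiation, feeders were removed on gelatin, and the ESCs formed embryoid bodies for 1 day without LIF before they were left to attach.

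The Xlr genes (X-linked lymphocyte-regulated) are a multicopy family of the mouse X chromosome whose proteins are related to SYCP3, a component of the synaptonemal complex that holds paired chromosomes together in meiosis. Members of the Xlr3 and Xlr4 groups are known for imprinted expression in mouse brain, where the maternal copy is the more active. DNMT1 copies CpG methylation onto newly replicated DNA, and many germline genes are kept silent in ESCs and somatic cells by methylation of their promoters. Methylation was not measured in the files used here.

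In GENCODE M21 (GRCm38), Xlr3a (ENSMUSG00000057836.12) lies on the minus strand at chrX:73086293-73097095, and its first listed transcript, Xlr3a-201, has 9 exons and 1645 bases. Xlr3b (ENSMUSG00000073125.10) lies on the plus strand at chrX:73192207-73202930, 95.1 kb from Xlr3a, and Xlr3b-201 also has 9 exons, with 1564 bases. Another copy, Xlr3c (ENSMUSG00000058147.1), lies at chrX:73254540-73265390, 51.6 kb beyond Xlr3b, and its level was not analysed here. The transcripts Xlr3a-201 and Xlr3b-201 are 98.8% identical, with 18 differing bases over 1549 aligned positions. Of all stretches of 150 bases, the read length of the study, 24.7% of those in Xlr3a-201 occur unchanged in Xlr3b-201. For Xlr3b-201, 47.1% of such stretches occur unchanged in the transcript of Xlr3a or of Xlr3c. How reads with several alignments were handled is not given in the sources used here, so the split of reads among the copies is uncertain, and the summed level of Xlr3a and Xlr3b is given beside the separate values.

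The promoters of both genes are shown because the lines differ in an enzyme that methylates CpG dinucleotides, which are in capitals in the sequences below, and because they show how alike the copies are. Each runs 5′ to 3′ from 250 bases before to 50 bases after a start annotated in RefSeq (GRCm38.p6). For Xlr3b this is not the outermost RefSeq start, chrX:73192150, which is used for distances to neighbours. The Xlr3a window is chrX:73097046-73097345 on the minus strand, and the Xlr3b window is chrX:73191929-73192228 on the plus strand.
Xlr3a: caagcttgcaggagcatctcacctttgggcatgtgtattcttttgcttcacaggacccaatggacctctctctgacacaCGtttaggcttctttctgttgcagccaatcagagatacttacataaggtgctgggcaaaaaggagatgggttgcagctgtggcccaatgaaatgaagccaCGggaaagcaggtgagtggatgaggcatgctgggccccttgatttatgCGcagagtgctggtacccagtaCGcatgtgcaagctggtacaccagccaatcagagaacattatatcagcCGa
Xlr3b: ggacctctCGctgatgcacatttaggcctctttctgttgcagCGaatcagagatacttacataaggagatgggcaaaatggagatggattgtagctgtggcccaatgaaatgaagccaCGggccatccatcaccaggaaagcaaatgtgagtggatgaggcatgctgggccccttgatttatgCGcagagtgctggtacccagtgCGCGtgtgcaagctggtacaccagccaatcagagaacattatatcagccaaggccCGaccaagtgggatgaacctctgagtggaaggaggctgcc
The windows were 94.1% identical over 237 aligned positions. The Xlr3a window held 5 CpG, and the Xlr3b window held 7, against a median of 7 over the 32851 promoters in the RefSeq table. At least 5 CpG were present in 62.0% of all promoters and at least 7 in 52.1%, so neither window was rich in CpG. Of these CpG, 3 lay at matching positions in both genes. The letters CCAAT, the recognition motif of the general factor NF-Y, were searched on both strands after the sequences had been seen. They occurred 4 times in the Xlr3a window and 2 times in the Xlr3b window, counts reached by 1.06% and 11.7% of all promoters, while 37.4% of promoters held at least 1 match. A match is a match of letters and not a measured binding site.

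Levels are FPKM, the reads of a gene per 1000 bases of transcript after scaling to the size of the library. The FPKM steps of low genes gave depths of 20200000 to 27900000 counted reads per library, if 1 step is 1 read. Reads given below for the Xlr3 genes come from these steps and from a length fitted for each gene. Intervals are exact 95% binomial (Clopper-Pearson) intervals of the ratio of reads and cover counting error only, not the difference between cultures. Dnmt1 itself was lower in the 1KO than in the WT library of every day, at 13.7 against 74.0 FPKM at day 0, 17.4 against 80.4 at day 2 and 12.3 against 48.5 at day 4, and where in the gene the remaining reads lie was not analysed here. In 1KO+1CI libraries, where the transgene adds reads, it was at 315, 129 and 158 FPKM. The pluripotency factor gene Pou5f1 lay between 632 and 1008 FPKM in all 9 libraries.

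In WT cells Xlr3a was close to the limit of detection. Its level was 0.530 FPKM at day 0, 0.100 FPKM at day 2 and 0.174 FPKM at day 4, which corresponds to 18, 4 and 6 reads. In 1KO cells it was 18.1, 11.4 and 5.98 FPKM at days 0, 2 and 4, from 838, 397 and 224 reads. In 1KO+1CI cells it was 22.7, 13.9 and 5.32 FPKM, from 894, 490 and 178 reads. The 6 libraries without catalytically active DNMT1 were all above the 3 WT libraries, and among these 6 the level was highest at day 0 and lowest at day 4 in each line. Both lines stem from the same knockout cells, so these libraries are not independent of each other.

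Xlr3b was as low as Xlr3a in WT cells, with 0.270 FPKM at day 0, 0.127 FPKM at day 2 and 0.177 FPKM at day 4, or 9, 5 and 6 reads. In 1KO cells it was 12.7, 12.4 and 10.9 FPKM, from 577, 422 and 402 reads. In 1KO+1CI cells it was 13.7, 14.7 and 12.7 FPKM, from 528, 510 and 419 reads. The lowest of the 6 libraries of 1KO and 1KO+1CI cells was again far above the highest WT library, but the levels of Xlr3b in these 6 libraries stayed close to each other over the 3 days. The sum of both genes was 0.800, 0.227 and 0.351 FPKM in WT cells, 30.9, 23.8 and 16.9 FPKM in 1KO cells and 36.4, 28.6 and 18.1 FPKM in 1KO+1CI cells at days 0, 2 and 4. The separation of WT from the other lines therefore held for the sum, which does not depend on how reads counted once were divided between Xlr3a and Xlr3b. It does depend on whether shared reads were left out or counted for each copy, and on reads shared with Xlr3c, which are not known.

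**Figure D1:**
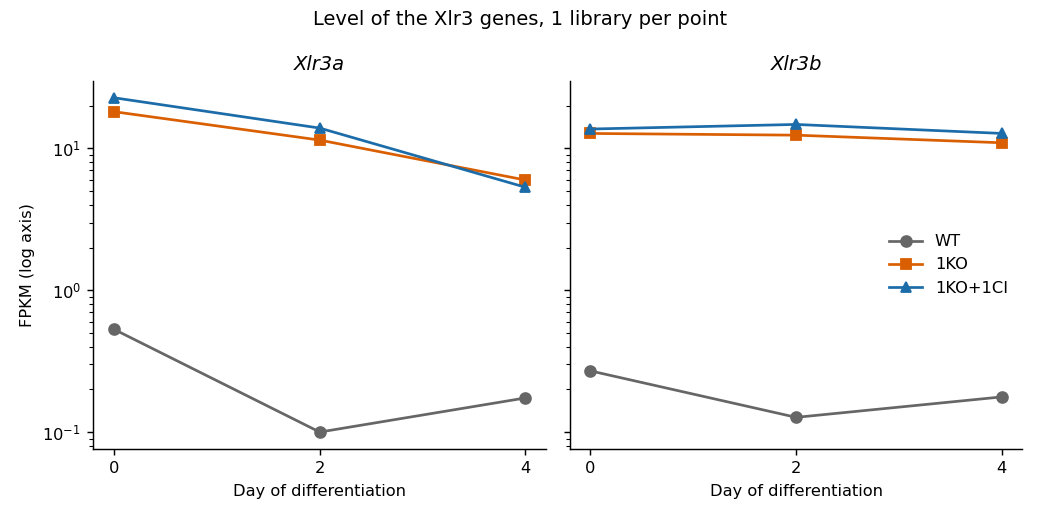
FPKM (log axis) of Xlr3a (left) and Xlr3b (right) against the day of differentiation, 1 library per point, joined by line. WT points lie between 0.100 and 0.530 FPKM and all points of 1KO and 1KO+1CI cells between 5.32 and 22.7 FPKM. Xlr3a declines over the days in these lines, while Xlr3b stays between 10.9 and 14.7 FPKM.

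The first comparison, 1KO against WT, asks how these genes differ with the loss of DNMT1. Xlr3a in 1KO cells was 34.2-fold the WT level at day 0 (interval 21.5 to 58.0), 114-fold at day 2 (44.5 to 423) and 34.4-fold at day 4 (15.6 to 94.8). For Xlr3b the ratio was 47.2 at day 0 (24.6 to 104), 97.5 at day 2 (41.5 to 302) and 61.8 at day 4 (28.1 to 169). The wide intervals come from the 4 to 18 reads of the WT libraries, so the order of the days in these ratios was not resolved at this depth. In bulk samples, more cells with Xlr3 RNA and more of it per cell cannot be told apart. On the log2(FPKM + 1) scale, which understates the change of low genes, the difference for Xlr3a was 3.64, 3.50 and 2.57 at days 0, 2 and 4, and that for Xlr3b 3.43, 3.57 and 3.34.

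Both genes were past a 2-fold difference on this scale at all 3 days, as were 2.24%, 1.60% and 1.67% of all genes in the higher direction at days 0, 2 and 4. Among the 15074 genes, Xlr3a had the highest difference at day 0 and Xlr3b the second highest, and they held these places in the opposite order at day 2. At day 4 Xlr3b ranked 7 and Xlr3a ranked 23. These places belong to the contrast for which the genes were chosen and describe it only. None of the 15074 genes had a value of 0 in any library, so genes without reads in a library may be missing. Ranks, shares and counts of list members or neighbours therefore cover the listed genes only.

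The next comparison, 1KO+1CI against 1KO, asks whether DNMT1 protein without catalytic activity goes with another level of these genes. Xlr3a was 1.25-fold as high in 1KO+1CI as in 1KO cells at day 0 (interval 1.14 to 1.38), 1.22-fold at day 2 (1.06 to 1.39) and 0.889-fold at day 4 (0.725 to 1.09). Xlr3b was 1.07-fold as high at day 0 (0.954 to 1.21), 1.19-fold at day 2 (1.05 to 1.36) and 1.16-fold at day 4 (1.01 to 1.34). The lowest value inside any of these 6 intervals was 0.725, so a return of Xlr3a or Xlr3b to the WT level was not seen at any day. The log2(FPKM + 1) differences lay between −0.14 and 0.31, so neither gene was past 2-fold in either direction at any day. Over all genes, 0.418%, 0.338% and 0.915% were past 2-fold in either direction at days 0, 2 and 4. The excess of 1.16 to 1.25 in 4 of the 6 ratios was past counting error, but its size against the spread between cultures is unknown. If read pairs were counted as 2 reads, the intervals of Xlr3b at days 2 and 4 include 1.

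Against WT, which is the same WT library as in the first comparison at each day, the 1KO+1CI ratio of Xlr3a was 42.9 at day 0 (27.0 to 72.7), 139 at day 2 (54.2 to 515) and 30.6 at day 4 (13.8 to 84.4). For Xlr3b it was 50.7 (26.5 to 111), 116 (49.5 to 360) and 72.0 (32.8 to 197). Both genes were past 2-fold higher at all 3 days, as were 2.54%, 2.28% and 3.01% of all genes. On the log2(FPKM + 1) scale the differences were 3.96, 3.76 and 2.43 for Xlr3a and 3.53, 3.80 and 3.55 for Xlr3b.

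During differentiation the copies parted. Xlr3a was 1.59-fold lower at day 2 than at day 0 in 1KO cells (interval 1.41 to 1.79) and 3.03-fold lower at day 4 (2.61 to 3.53). In 1KO+1CI cells it was 1.64-fold lower at day 2 (1.46 to 1.83) and 4.28-fold lower at day 4 (3.64 to 5.06). The day 4 differences were −1.45 and −1.91 on the log2(FPKM + 1) scale in 1KO and 1KO+1CI cells, past 2-fold lower in both, as were 5.13% and 5.59% of all genes in these lines. Xlr3b was not past 2-fold in either line. It was 1.16-fold lower at day 4 than at day 0 in 1KO cells (1.02 to 1.32) and 1.07-fold lower in 1KO+1CI cells (0.943 to 1.22). In WT cells Xlr3a was 5.30-fold lower at day 2 than at day 0 (1.75 to 21.6) and 3.05-fold lower at day 4 (1.16 to 9.39), from 18 reads at most, while the intervals for Xlr3b included 1 at both days. If read pairs were counted as 2 reads, those of Xlr3b in 1KO cells and of Xlr3a in WT cells at day 4 include 1 as well.

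The same divergence was seen in the ratio of Xlr3a to Xlr3b, which is taken within a library and compared between libraries. In 1KO cells it was 1.42 at day 0 (interval 1.28 to 1.59), 0.923 at day 2 (0.803 to 1.06) and 0.546 at day 4 (0.462 to 0.645). In 1KO+1CI cells it was 1.66 (1.49 to 1.85), 0.943 (0.831 to 1.07) and 0.417 (0.348 to 0.498). In both of these lines the 3 intervals did not overlap, so Xlr3a was above Xlr3b at day 0, level with it within counting error at day 2 and below it at day 4. In WT cells the ratio was 1.96 (0.837 to 4.96), 0.787 (0.156 to 3.65) and 0.983 (0.262 to 3.67), and with 4 to 18 reads a gene no difference between the copies was detectable. How reads shared between the copies were counted is not known, and their part in these ratios was not tested. Shared stretches make up 24.7% of Xlr3a-201 and 47.1% of Xlr3b-201, so whether a ratio lies above or below 1 may depend on that handling.

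**Figure D2:**
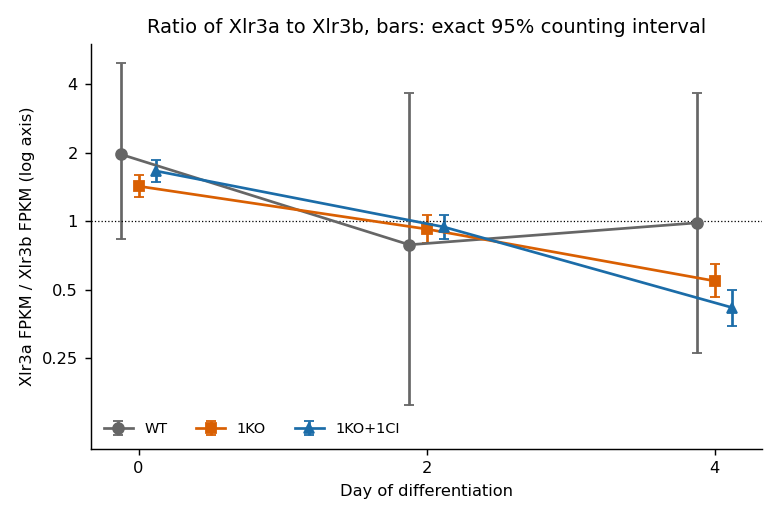
Ratio of Xlr3a FPKM to Xlr3b FPKM (log axis) in each library against the day of differentiation, with the exact 95% counting interval as bars and the dotted line at a ratio of 1. The ratio drops from 1.42 to 0.546 in 1KO cells and from 1.66 to 0.417 in 1KO+1CI cells, and the bars of WT cells span 1 at every day.

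The protocol removed feeder cells at the start of differentiation, and fibroblast RNA was most abundant in the day 0 libraries. Of 8 fibroblast markers fixed for this check, 7 were measured (Lum was not analysed here) and none was at 0. Their summed level was 91.9, 12.3 and 14.3 FPKM in WT cells at days 0, 2 and 4, 181, 20.6 and 15.9 FPKM in 1KO cells and 207, 27.6 and 27.2 FPKM in 1KO+1CI cells. In 1KO cells at day 0, 3 of the 7 were past 2-fold higher than in WT cells and the median difference was 0.94. Over all genes this share was 2.24%, and the median was −0.01. Between 1KO+1CI and WT cells at day 0, 4 of the 7 were past 2-fold higher, and the median of the 7 was 1.47. The all-gene share and median of that comparison were 2.54% and −0.03. In 1KO cells at days 0 and 2 the marker sum was 181 and 20.6 FPKM, Xlr3b 12.7 and 12.4 FPKM and Xlr3a 18.1 and 11.4 FPKM. At day 4 the marker sums of WT and 1KO cells were 14.3 and 15.9 FPKM, and the 1KO to WT ratios of Xlr3a and Xlr3b were 34.4 and 61.8. The part of feeder RNA in the decline of Xlr3a and in the differences between lines was not tested. All 4 pluripotency genes of the ESC list (Pou5f1, Sox2, Nanog and Zfp42) stayed within 2-fold between 1KO and WT cells at days 0 and 2. Zfp42 came close to that limit at day 2 (−0.97). At day 4 Nanog was higher (171 against 56.8 FPKM) and Zfp42 lower (13.9 against 31.6 FPKM) in 1KO cells. Between 1KO+1CI and WT cells at day 2, Nanog (−1.11) and Zfp42 (−1.35) were past 2-fold lower, as were 1.26% of all genes. At day 4 Nanog was higher (1.45) and Zfp42 lower (−1.08) in 1KO+1CI cells as well.

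Within the wider family, 4 of 14 listed genes were in the gene table used, namely Xlr3a, Xlr3b, Xlr and Sycp3, and the Xlr4 and Xlr5 groups were not analysed here. Xlr, the founding member of the family, was at 0.133, 0.0147 and 0.188 FPKM in WT cells at days 0, 2 and 4. It was at 0.740, 0.345 and 4.52 FPKM in 1KO cells and at 0.445, 0.555 and 2.84 FPKM in 1KO+1CI cells. Xlr was thus highest at day 4 in the lines without active DNMT1, where Xlr3a was lowest, and its 1KO minus WT difference in log2(FPKM + 1) was 0.62, 0.41 and 2.22. Sycp3, the autosomal relative that encodes the synaptonemal complex protein, did not share the pattern. It was at 12.8, 6.71 and 16.2 FPKM in WT cells, 3.52, 6.92 and 11.4 FPKM in 1KO cells and 5.82, 9.56 and 4.98 FPKM in 1KO+1CI cells. Sycp3 was therefore lower in 1KO than in WT cells at days 0 and 4, with log2 differences of −1.61 and −0.47, and level at day 2 (0.04).

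Genes around the Xlr3 copies were compared to see how far along the X chromosome the difference reached. RefSeq lists 78 other genes within 1 Mb of the Xlr3 genes, of which 28 were in the table. Their median difference between 1KO and WT was 0.06, 0.06 and 0.03 at days 0, 2 and 4, against −0.01, 0.00 and 0.00 over all genes, and 3, 4 and 2 of the 28 were past 2-fold higher, none lower. This is 10.7%, 14.3% and 7.14% of them, against the 2.24%, 1.60% and 1.67% of all genes. The nearest measured gene beside Xlr3a, Pnma3 of the paraneoplastic Ma antigen family, lies 18.1 kb away and was below 0.2 FPKM in every library. Beyond Xlr3b the nearest measured gene, F8a, which encodes a huntingtin-associated protein, lies 36.2 kb from the Xlr3b start in RefSeq and was at 1.19 to 2.09 FPKM, with 1KO minus WT differences of 0.08, 0.07 and 0.15. Neither neighbour shared the difference of the Xlr3 genes.

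Pnma5, a relative of Pnma3 that lies 46.6 kb from Xlr3a, was past 2-fold higher in 1KO cells at all 3 days. It was at 2.60, 3.77 and 2.01 FPKM in WT cells, 21.3, 22.4 and 7.43 FPKM in 1KO cells and 23.1, 28.2 and 10.2 FPKM in 1KO+1CI cells. Like Xlr3a it was lower at day 4 than at day 0 in both lines. The promoter window of Pnma5 held 1 CpG. This window (chrX:73037054-73037353, minus strand) lies inside the RefSeq gene (chrX:73033981-73039721) and not at its outermost start. The others past 2-fold were farther off. Bgn, which encodes the matrix proteoglycan biglycan and is abundant in fibroblasts, was at 37.6, 4.40 and 2.34 FPKM in WT and 101, 11.7 and 4.47 FPKM in 1KO cells, and like the feeder markers it was highest at day 0. Dusp9, a MAP kinase phosphatase gene, was at 36.4, 20.8 and 38.4 FPKM in WT and 77.2, 51.8 and 51.0 FPKM in 1KO cells. In 1KO+1CI cells Dusp9 was at 41.4, 45.8 and 58.0 FPKM, so at day 0 it was near the WT level there. Tktl1, a transketolase-like gene that is also in the list of X-linked germline genes below, was at 0.0790, 0.167 and 0.193 FPKM in WT and 0.782, 1.47 and 1.96 FPKM in 1KO cells. Of the 551 measured X-chromosome genes, 28, 28 and 33 were past 2-fold higher and 7, 2 and 1 lower in 1KO cells at days 0, 2 and 4, with medians of −0.01, 0.03 and 0.05. The share past 2-fold higher was 5.08%, 5.08% and 5.99%, above that of all genes, while the medians lay near those of all genes.

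**Figure D3:**
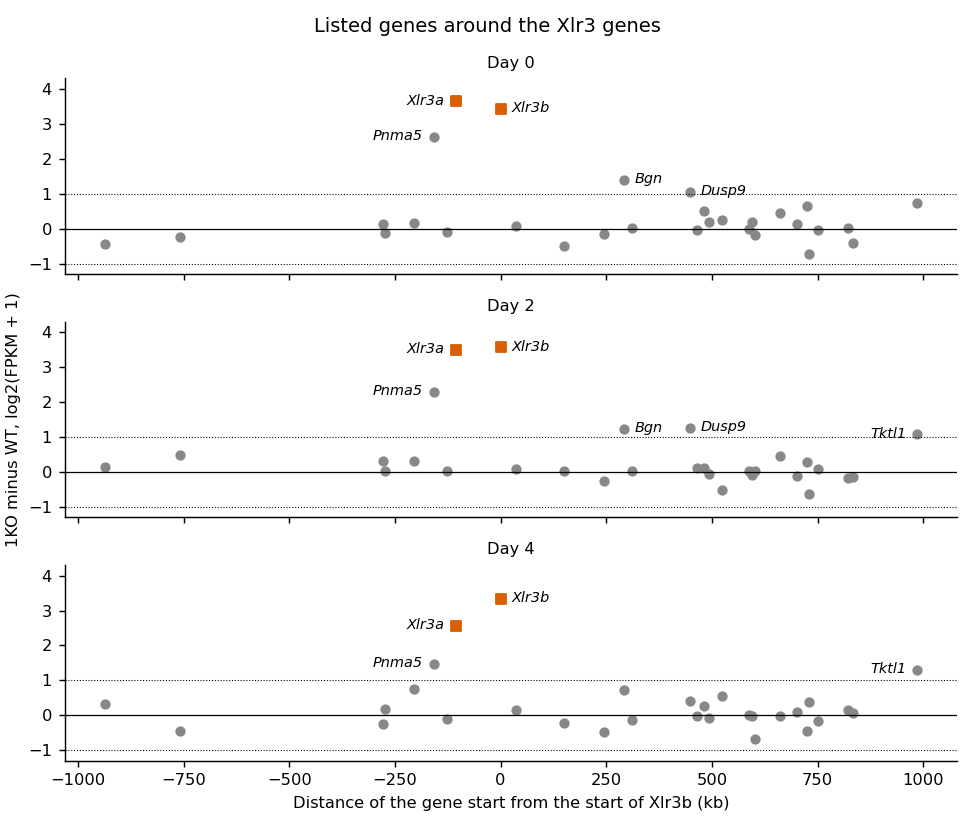
Difference between 1KO and WT cells in log2(FPKM + 1) for the listed genes within 1 Mb, against the distance of the gene start from the start of Xlr3b in kb, at days 0, 2 and 4. Squares are Xlr3a and Xlr3b, dotted lines mark 2-fold, and genes past them are named. The Xlr3 genes stand between 2.57 and 3.64, followed by Pnma5, while Pnma3 and F8a lie near 0.

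A list of 28 germline genes was set beside the Xlr3 genes, since promoter methylation is a known layer of their silencing, and Sycp3 is on it too. Of its 25 measured members, 13, 12 and 4 were past 2-fold higher in 1KO than in WT cells and 1, 0 and 1 lower at days 0, 2 and 4, with medians of 1.06, 0.94 and 0.32. Over all genes 2.24%, 1.60% and 1.67% were past 2-fold higher and 1.55%, 0.663% and 0.590% lower. Of 36 listed X-linked germline genes, 12 were measured. In 1KO against WT, 8, 6 and 4 of them were past 2-fold higher and none lower, with medians of 1.16, 0.83 and 0.78. These medians became 2.27, 1.53 and 1.43 with a pseudocount of 0.1. In the day 0 library of 1KO+1CI cells, Rhox6 (−1.44), Rhox9 (−1.35) and Fthl17a (−1.24) lay past 2-fold below their 1KO level. That is 25% of the 12, against 0.239% of all genes, and none of the 12 was past 2-fold above. Neither Xlr3 gene fell there (0.31 for Xlr3a and 0.10 for Xlr3b). No member of this X-linked list passed 2-fold from its 1KO level at days 2 and 4. In the difference between 1KO and WT, Xlr3a and Xlr3b lay above the highest member of both lists at days 0 and 2. They were chosen with these values known and held the 2 highest places of all genes at these days, so this was fixed beforehand. At day 4 Xlr3b was exceeded by Nxf3 alone among these members (3.44 against 3.34), and Xlr3a, at 2.57, also by Fkbp6 and Gpat2. Both lists were chosen with earlier results of these data known, so their counts and medians are a description only.

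The highest members of the germline list by their median difference were Fkbp6 (3.27), an immunophilin gene needed for male meiosis, Gpat2 (3.05), an acyltransferase gene of the testis, and Tuba3a (2.25), an alpha-tubulin gene. The lowest were the testis RNA helicase gene D1Pas1 (−0.76) and the piRNA pathway gene Tdrd1 (−0.64). Fkbp6 was at 0.548, 1.29 and 0.359 FPKM in WT and 13.9, 21.8 and 7.53 FPKM in 1KO cells. Among X-linked germline genes the highest were Nxf3 (2.93), of the nuclear RNA export factor family, Usp26 (1.89), a deubiquitinase gene of the testis, and Rhox13 (1.81), a homeobox gene. The lowest medians over the days were those of Tex16 (0.08) and the homeobox gene Rhox9 (0.11). Rhox9 varied between days, with differences of 2.03, −0.78 and 0.11 at days 0, 2 and 4. Nxf3 was at 0.0160, 0.360 and 0.144 FPKM in WT and 3.97, 9.38 and 11.4 FPKM in 1KO cells, a level that was highest at day 4, when that of Xlr3a was lowest.

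**Figure D4:**
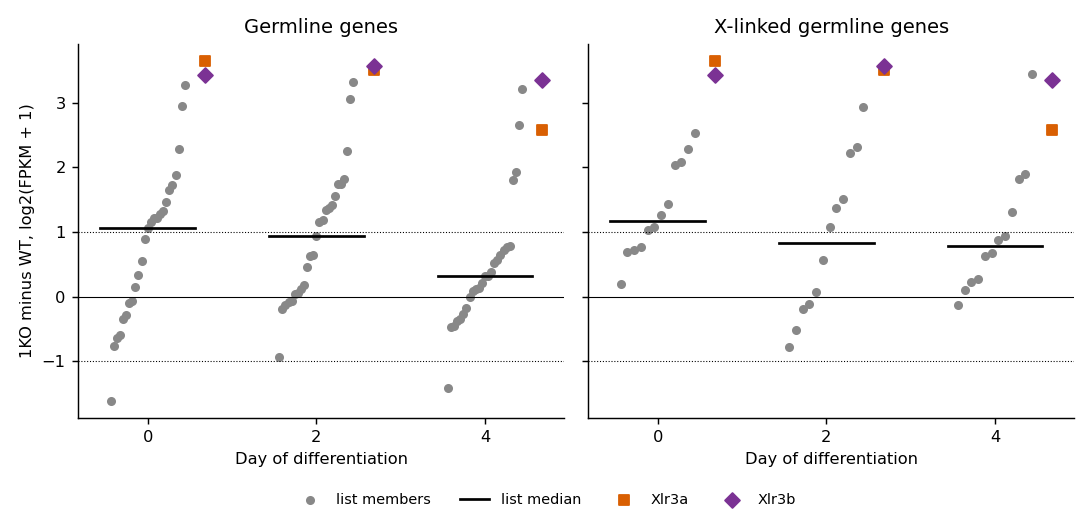
Difference between 1KO and WT cells in log2(FPKM + 1) at days 0, 2 and 4 for the 25 measured germline genes (left) and the 12 measured X-linked germline genes (right), each grey point a gene in order of its value and the bar the list median, with Xlr3a and Xlr3b beside them in both panels. Both Xlr3 genes, chosen with these values known, lie above every list member at days 0 and 2. At day 4 Nxf3 at 3.44 is the one member above Xlr3b.

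The genes whose levels went most like the Xlr3 genes were found by Pearson's r of log2(FPKM + 1) with the mean of Xlr3a and Xlr3b over the 9 libraries, among 13288 genes with at least 1 FPKM in some library. The libraries share lines and days, so r describes the shape of the profile and carries no p. Xlr3a and Xlr3b correlated with each other at r = 0.95. The 5 most alike were Gpat2 (r = 0.984), Abhd12, a lysophospholipase gene (0.975), Mov10l1, a piRNA pathway helicase gene (0.974), Tuba3a (0.972) and Atp2a3, a calcium pump gene (0.971). The sizes differed widely under these alike shapes. Gpat2 was at 0.944, 0.881 and 0.455 FPKM in WT, 14.0, 14.6 and 12.5 FPKM in 1KO and 12.9, 15.0 and 11.4 FPKM in 1KO+1CI cells, close to the levels of Xlr3b. Tuba3a was at 3.40, 3.39 and 2.36 FPKM in WT and 20.5, 19.9 and 11.8 FPKM in 1KO cells, and Mov10l1 at 1.82, 1.38 and 1.91 FPKM in WT and 4.24, 4.32 and 3.55 FPKM in 1KO cells. Abhd12 was at 11.2 to 11.9 FPKM in the WT and 13.5 to 15.5 FPKM in the other libraries, and Atp2a3 at 1.30 to 1.45 and 2.08 to 2.64 FPKM. The promoter windows of Gpat2, Mov10l1, Tuba3a and Atp2a3 held 15, 20, 12 and 25 CpG, all more than those of Xlr3a and Xlr3b.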

How the data were processed

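RNA-seq of 9 libraries, 1 for each of WT, 1KO and 1KO+1CI cells at days 0, 2 and 4, was used as deposited. The authors made the deposited FPKM per gene with HOMER after trimming (Trim Galore) and alignment to mm10 (HISAT2). For tool versions, annotation release, strand setting and multiply aligned reads, nothing was given in the sources used here. The deposited FPKM per repeat copy served only for relative depth.

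Of 15095 entries, 1 named 0 and 20 dates were left out. No value was 0, and no column belonged to another sample. The unit of a step in the values is not known, and read pairs counted as 2 would widen the intervals. Lengths of 1655 and 1624 bases were fitted so that the WT values of Xlr3a and Xlr3b came closest to whole reads. These values then lay within 0.0163 and 0.00678 of a read, a closeness set by the fit. No annotated transcript had the fitted length, and the nearest had 1645 bases for Xlr3a and 1564 for Xlr3b. The absolute depth came from 1850 genes with 1 annotated transcript. Differences were taken in log2(FPKM + 1), and 2-fold means a difference past 1.

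The members and lists were chosen with earlier results of these data known. Named genes were the members, the measured Xlr family, the 5 genes most alike in profile, the nearest listed neighbours, genes within 1 Mb past 2-fold between 1KO and WT, the 3 highest and 2 lowest of each germline list, and Dnmt1. Alternatives were a pseudocount of 0.1, scaling to a common sum (TPM), median-ratio scaling and a minimum of 1 FPKM. Depth recovery and 2-fold counts were tested on simulated data. Computations ran in Python 3.11.15 (pandas 2.3.3, numpy 2.4.6, Biopython 1.88, matplotlib 3.10.9, scipy 1.17.1). Gene positions came from GENCODE M21, and promoters and neighbours from RefSeq, where 14914 of the 15074 genes matched by symbol.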

Additional observations from a re-analysis of the deposited data

How the results depend on the processing

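Of 90 alternative values of the Xlr3 genes, 1 changed sign, the difference of Xlr3b between days 2 and 0 in 1KO cells, which was −0.04 and became 0.07 with common-sum scaling, within its counting interval. Common-sum (TPM) scaling and median-ratio scaling moved 0 of 60 past their counting interval. The factors of median-ratio scaling were 0.977 to 1.01. A pseudocount of 0.1 moved 16 of 30. The 1KO minus WT difference of Xlr3a became 4.86, 5.85 and 4.47 at days 0, 2 and 4, and that of Xlr3b 5.12, 5.78 and 5.32. In WT cells the day 2 and day 4 differences from day 0 became −1.66 and −1.20 for Xlr3a and −0.70 and −0.42 for Xlr3b. That pseudocount lets more low genes pass 2-fold. At days 0, 2 and 4 the counts became 898, 839 and 746 higher for 1KO against WT (337, 241 and 251 with a pseudocount of 1), 496, 480 and 718 in either direction for 1KO+1CI against 1KO (63, 51 and 138), and 993, 1056 and 1099 higher for 1KO+1CI against WT (383, 343 and 454). For day 4 against day 0 they became 1480 lower in 1KO (774) and 1541 in 1KO+1CI cells (843). Of the 5 genes most alike in profile, 3 remained. The medians of the X-linked germline genes between 1KO and WT became 2.27, 1.53 and 1.43 at days 0, 2 and 4. Those of the Xlr family became 3.35, 3.87 and 4.24 (2.03, 1.95 and 2.39 with a pseudocount of 1). Xlr3a and Xlr3b are themselves 2 of the 4 measured genes behind the family medians, which therefore do not describe the family apart from them. A minimum of 1 FPKM in 1 of the libraries compared cannot change these counts, since a gene past 2-fold on this scale already exceeds it.

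If a step of the values stands for 1 of 2 mates, an alternative added after seeing the data, the intervals of the 1KO+1CI to 1KO ratio of Xlr3b at days 2 and 4 include 1 (0.989 to 1.44 and 0.955 to 1.42), as does the Xlr3b fall in 1KO cells at day 4 (0.968 to 1.40) and the Xlr3a fall in WT cells at day 4 (0.762 to 17.5). No paired analysis was possible because the labels give no replicate numbers that pair libraries. A model with line and day as terms would leave residual degrees of freedom but was not fitted, since the genes were chosen on these values. Leaving out a library leaves its condition without a value.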

Other observations

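Since Xlr3a and Xlr3b parted during differentiation, the genes most like each of them alone were also looked up, a choice made after the values were seen. The highest r with Xlr3a alone was that of Plxna2 (0.984), a semaphorin receptor gene, followed by Tuba3a (0.980) and Bcor (0.976), which encodes a transcriptional corepressor. Plxna2 was at 0.434, 0.298 and 0.263 FPKM in WT and 1.02, 0.988 and 0.753 FPKM in 1KO cells at days 0, 2 and 4. The highest r with Xlr3b alone was that of Gpat2 (0.995), with Gm16796 (0.978) and Atp2a3 (0.969) next. Gtsf1, a piRNA pathway gene, had the fourth highest r with Xlr3b (0.961) and was at 0.610, 0.518 and 0.267 FPKM in WT, 3.75, 2.20 and 3.66 FPKM in 1KO and 5.04, 3.96 and 4.38 FPKM in 1KO+1CI cells.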
